A study of Mus musculus with 2 samples.

Results

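Glycolysis, lactate and hypoxia-response genes were followed in mouse macrophages from Trem2 knockouts and in wild-type (WT) macrophages. The group was chosen by name and holds 35 genes, among them the glucose transporter gene Slc2a1, the enzymes from hexokinase to lactate dehydrogenase, the lactate exporters, and Hif1a with its regulators and some of its targets. All 35 are among the 11349 protein-coding genes of the deposited table. There were 2 groups of 1 RNA-seq library each. The knockout cells were primary macrophages from the abdominal cavity whose title marks TREM-2-/-, although their genotype field says knockdown. The WT cells were primary macrophages from the same site, whose table column is headed C57. Both groups had received TGF-β1, a growth factor of wound repair and scarring, for 24 h, so no cells without it are in the comparison. The age of the mice, their number, any pooling and the extent of the Trem2 deletion are stated in none of the sources used. With 1 library per group there is no replicate check, no p-value is given, and genes are picked out by the size of the difference alone.

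Glycolysis splits glucose into pyruvate in the cytosol and yields a little ATP. Lactate dehydrogenase turns pyruvate into lactate, which monocarboxylate transporters carry out of the cell, while the pyruvate dehydrogenase complex sends pyruvate to the mitochondrion. The transcription factor HIF, whose alpha subunit Hif1a is marked for destruction by prolyl hydroxylases when oxygen is present, raises transcription of most glycolytic genes. Macrophages are known to lean on this pathway when they are activated by microbial products, also where oxygen is ample.

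HIF binds a short core, ACGTG or GCGTG, in the control regions of its targets. The stretches below come from the RefSeq promoter table (build GRCm38.p6, which corresponds to mm10). They were picked to show that core in members that stood higher in the knockout library (Bnip3, Ero1l, Pgk1 and Aldoa) and in members that stood lower (Ldha and Pfkl), with each match on either strand in capitals (written as CACGT or CACGC where it lies on the other strand, and as CACGTG where the strands overlap). Each is 60 bases long, reads 5′ to 3′ on the gene's strand, and lies outside annotated exons.
Bnip3 (chr7:138909582-138909641, - strand): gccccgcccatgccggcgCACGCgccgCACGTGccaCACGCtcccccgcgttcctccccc
Ero1l, RefSeq symbol Ero1a (chr14:45318616-45318675, - strand): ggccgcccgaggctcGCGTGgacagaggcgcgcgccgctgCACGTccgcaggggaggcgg
Pgk1 (chrX:106186932-106186991, + strand): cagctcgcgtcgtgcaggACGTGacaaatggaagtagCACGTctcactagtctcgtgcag
Aldoa (chr7:126799348-126799407, - strand): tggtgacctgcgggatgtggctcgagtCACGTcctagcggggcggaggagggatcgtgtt
Ldha (chr7:46845736-46845795, + strand): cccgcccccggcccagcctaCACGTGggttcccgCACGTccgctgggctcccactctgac
Pfkl (chr10:78009874-78009933, - strand): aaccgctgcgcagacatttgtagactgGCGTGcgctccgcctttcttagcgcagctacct

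Of the 35 members, 32 matched a RefSeq promoter, and 29 of these held at least 1 core on either strand in the 250 bases before a start site, a CACGTG counted once. That is 90.6% of the matched members, against 61.7% of 8890 listed genes with a promoter in the table and 41.5% of all 27025 genes in it. At least 2 cores in the same window were found in 62.5% of the matched members and 28.1% of the listed genes. Gpi1, Tpi1 and Eno2 held none in these windows. Members on either side of the median difference of all genes carried the core: 16 of 19 matched members above it and 13 of 13 below it. A match is a description of the letters and shows no binding. The members were chosen by name and include known HIF targets, so these shares are no test of enrichment. Genes with several start sites had more windows: 45 for the 32 members and 11321 for the 8890 listed genes. CACGTG, which counts as a core here, was held by 18.8% of the matched members and 10.2% of the listed genes.

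Values are FPKM, that is, fragment numbers corrected for gene length and library size. Depth, estimated from the spacing of the lowest values, was 12.4 M fragments for the knockout library and 13.5 M for WT. Trem2 was at 13.7 FPKM in the knockout library and 135 FPKM in WT, so a remainder of its signal is present in the library labelled as a knockout. The macrophage genes Lyz2 (10171 and 7962 FPKM in knockout and WT), Cd68 (1512 and 1169 FPKM) and Adgre1 (148 and 133 FPKM) were strongly expressed in each library, whereas Mrc1 (6.10 and 33.7 FPKM), Fcgr1 (14.4 and 55.9 FPKM) and Gata6 (2.67 and 14.0 FPKM) stood lower in the knockout. The 11 listed of 12 macrophage markers summed to 12007 FPKM in the knockout and 9603 FPKM in WT, sums made up mostly of Lyz2, and Timd4, a marker of resident peritoneal macrophages, is the other. Mesothelial markers (6 of 6 listed) summed to 4.39 and 16 FPKM, and mast cell markers (3 of 4) to 2.67 and 10.9 FPKM, while none of 4 erythroid markers was listed. Differences are given as log2((knockout FPKM + 1)/(WT FPKM + 1)), a scale that understates the change of low genes. Over the 9962 genes that averaged at least 1 FPKM between libraries, the median difference was -0.31, so the libraries differ by a general shift, and member differences are also given relative to that median. On this scale the 11 macrophage markers had a median of -0.94, with 0 at least 2-fold higher and 5 lower (13.7% of all genes tested were lower), so most of them went against their sum. Besides Mrc1, Fcgr1 and Gata6 the lower ones were Itgam (41.2 FPKM in the knockout and 92.7 FPKM in WT) and Icam2 (0.398 and 2.08 FPKM). Mertk (8.18 and 16.6 FPKM) was 2.02-fold lower by FPKM but at -0.94 on the log2(FPKM + 1) scale, just short of 2-fold. Cd14 (50.1 and 77.8 FPKM) was lower by less than 2-fold.

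As a set, the 35 genes did not stand apart from this shift. Their median difference was -0.24 on the log2(FPKM + 1) scale, against -0.31 for all genes tested, and 20 members lay above the median of all genes and 15 below it. The knockout library had 2 members past 2-fold upward, Gpi1 and Aldoc, where 3.48% of all genes tested were. Past 2-fold downward were 3 members, Pfkl, Eno1 and Eno1b, where 13.7% of all genes were. At a lower threshold of 1.5-fold the counts were 6 members upward, against 9.99% of all genes, and 7 downward, against 32.7%. With the general shift subtracted, Gpi1, Aldoc, Aldoa, Hif1a and Bnip3 were at least 2-fold higher (7.66% of all genes) and Pfkl and Eno1b at least 2-fold lower (6.57% of all genes). The 35 genes made up 0.731% of the summed FPKM in the knockout library and 0.773% in WT, so the group as a whole took a similar share of the measured RNA while its members went different ways. In bulk RNA, fewer cells of a type and less RNA per cell cannot be told apart.

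**Figure D1:**
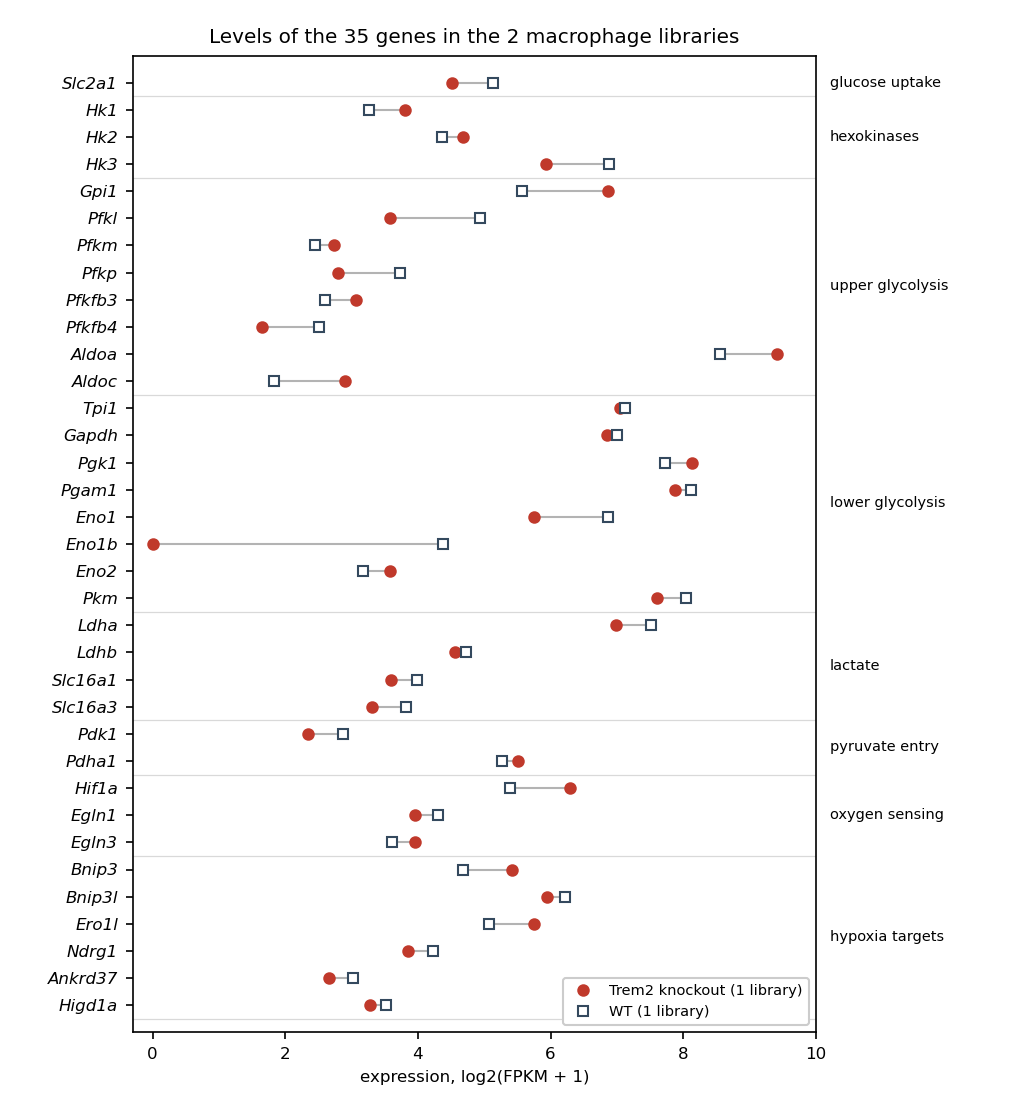
Expression of the 35 genes as log2(FPKM + 1) on the horizontal axis, 1 row per gene ordered by role, with filled red circles for the Trem2 knockout library and open squares for the WT library (1 library each). Aldoa has the highest level in each library, and Eno1b is listed at 0 in the knockout library and at 19.8 FPKM in WT.

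Glucose enters through Slc2a1, the transporter GLUT1, and is trapped in the cell by hexokinases. Slc2a1 was at 21.8 FPKM in the knockout library and 34.2 FPKM in WT, 1.57-fold lower (95% interval 1.45 to 1.70). This and the following intervals for single genes are Clopper-Pearson (exact) bounds on the FPKM ratio and take the deposited scaling as exact, intervals for ratios between genes use a normal approximation on the log scale, and both kinds cover counting error only. The 3 hexokinase genes went different ways. Hk3, the hexokinase typical of myeloid cells, was at 60.3 FPKM in the knockout and 117 FPKM in WT, 1.95-fold lower (interval 1.86 to 2.04). Hk1, the housekeeping form found in most tissues, was at 13 FPKM in the knockout and 8.64 FPKM in WT, 1.5-fold higher (interval 1.38 to 1.63). Hk2, the inducible form, was at 24.7 FPKM in the knockout and 19.5 FPKM in WT, 1.27-fold higher (interval 1.18 to 1.36). The make-up of the family therefore differed between the libraries. Hk3 supplied 61.6% of the summed hexokinase FPKM in the knockout and 80.7% in WT, with Hk2 at 25.2% and 13.4%, and Hk1 at 13.3% and 5.93%. The ratio of Hk1 to Hk3, which no scaling between libraries can alter, was 2.93 times as high in the knockout (interval 2.67 to 3.22). Some macrophage genes stood lower in the knockout (Mrc1, Fcgr1, Gata6), as Hk3 did. Others of that list stood higher as deposited, namely Lyz2, Cd68, Adgre1 and Csf1r (53.1 and 46.1 FPKM in knockout and WT). Some fibroblast and contractile markers also stood higher. With 1 library per group, all genes that differ move together, and the part of these markers in the hexokinase difference was not tested. The summed level of the 9 fibroblast and contractile markers, all listed, was 1070 FPKM in the knockout and 251 FPKM in WT. The knockout sum was made up mostly of Tagln (388 and 7.91 FPKM in knockout and WT) and Acta2 (279 and 6.67 FPKM), which had the largest differences. Among the 9, 4 were at least 2-fold higher (3.48% of all genes tested) and 1 was lower (13.7%). With the general shift subtracted, 5 were higher (7.66% of all genes) and 1 lower (6.57%). Col1a1, among the higher, was at 171 and 48.1 FPKM, and the lower gene was Pdgfra at 6 and 29.3 FPKM. Dcn was also lower, by less than 2-fold (48.9 and 71.4 FPKM), and Lum and Pdgfrb differed little, so the markers did not rise as a set. None of these 9 is listed at 0.

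Between glucose phosphate and the triose phosphates, neighbouring steps stood in opposite directions. Gpi1, the isomerase that turns glucose phosphate into fructose phosphate, was at 115 FPKM in the knockout library and 46.4 FPKM in WT, 2.49-fold higher (interval 2.40 to 2.58). Its locus is chromosome 7, 34201330 to 34230336 (mm10, - strand, ENSMUSG00000036427.5), and its log2 difference of 1.30 was above that of 98.1% of all genes tested. It was the highest difference among the 35 on the log2(FPKM + 1) scale, whereas by FPKM ratio, and with a pseudocount of 0.1 FPKM, the low gene Aldoc was slightly higher. Pfkl, the liver-type subunit of phosphofructokinase, the enzyme that commits sugar to glycolysis, was at 10.9 FPKM in the knockout and 29.5 FPKM in WT, 2.72-fold lower (interval 2.52 to 2.94). Pfkl lies on chromosome 10 from 77986947 to 78010083 (mm10, - strand, ENSMUSG00000020277.10), and 5.56% of all genes tested stood lower than its log2 difference of -1.36. Gpi1 and Pfkl encode consecutive enzymes. Their FPKM ratio was 10.6 in the knockout and 1.57 in WT, 6.76 times as high (interval 6.22 to 7.36), a comparison within each library that the scaling cannot change.

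The other phosphofructokinase subunits split. Pfkp, the platelet type, was at 5.95 FPKM in the knockout library and 12.3 FPKM in WT, 2.07-fold lower by FPKM (interval 1.92 to 2.24) and at -0.94 on the log2(FPKM + 1) scale, just short of 2-fold. Pfkm, the muscle type, was at 5.64 FPKM in the knockout and 4.47 FPKM in WT. Pfkl thus gave 48.4% of the summed phosphofructokinase FPKM in the knockout and 63.7% in WT, Pfkm 25.1% and 9.65%, and Pfkp 26.5% and 26.6%. The sum itself was 22.5 FPKM in the knockout and 46.3 FPKM in WT. It was the lowest of the 11 steps from hexokinase to lactate dehydrogenase in the knockout, and practically level with the isomerase step (46.4 FPKM) as the lowest in WT. Pfkfb3 and Pfkfb4 encode bifunctional enzymes that set the level of a fructose bisphosphate that switches phosphofructokinase on. Pfkfb3 was at 7.4 FPKM in the knockout and 5.09 FPKM in WT, 1.45-fold higher (interval 1.30 to 1.63). Pfkfb4 was at 2.13 FPKM in the knockout and 4.67 FPKM in WT. Their sum hardly differed, at 9.53 FPKM in the knockout and 9.76 FPKM in WT, but Pfkfb3 held 77.7% of it in the knockout and 52.2% in WT.

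Aldolase splits fructose bisphosphate into a pair of trioses. Aldoa, the main aldolase of most tissues, was at 678 FPKM in the knockout library and 374 FPKM in WT, 1.81-fold higher (interval 1.78 to 1.85). It was the most highly expressed member in each library, at rank 52 of all genes in the knockout and rank 88 in WT. Its locus is chromosome 7, 126795234 to 126800751 (mm10, - strand, ENSMUSG00000030695.16). Aldoc, the form known from brain, was far lower, at 6.49 FPKM in the knockout and 2.55 FPKM in WT, 2.55-fold higher (interval 2.04 to 3.21). Its call rests on an estimated 263 fragments in the knockout and 112 in WT, and it stood at 0.94 on the log2 scale, under 2-fold, once the libraries were rescaled to the same summed FPKM. Aldoa held 99.1% of the aldolase FPKM in the knockout and 99.3% in WT.

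**Figure D2:**
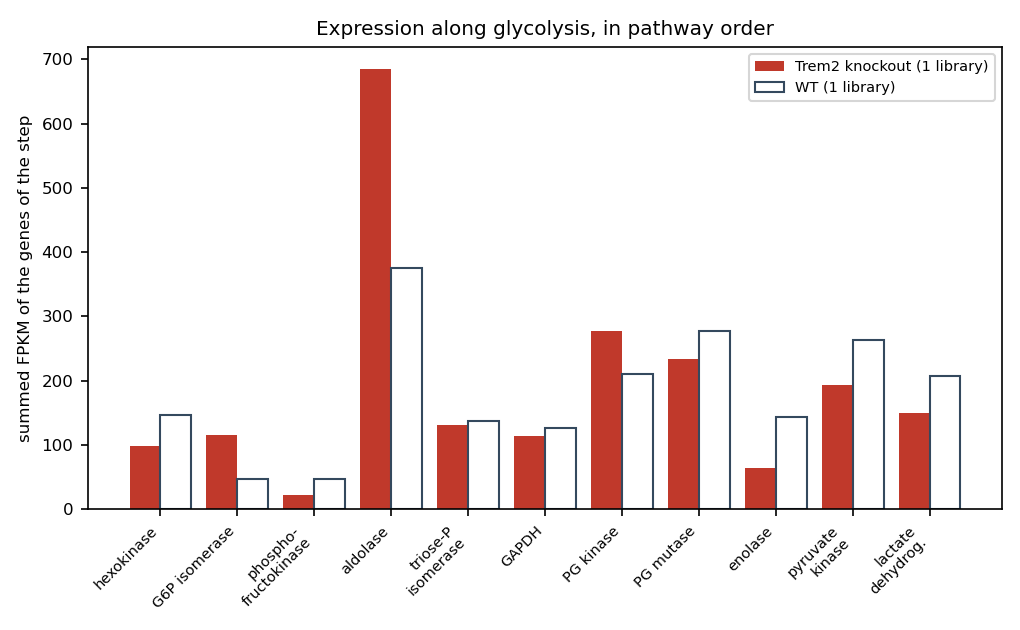
Summed FPKM (vertical axis, from 0) of the genes of each of 11 glycolytic steps in pathway order, with red bars for the Trem2 knockout library left of white bars for WT (1 library each, no error bars). Isomerase (115 and 46.4 FPKM) and aldolase (685 and 376 FPKM) are higher in the knockout, while phosphofructokinase (22.5 and 46.3 FPKM) and enolase (63.6 and 144 FPKM) are lower.

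The steps from triose to phosphoglycerate differed little, and the direction of several depended on the scaling. Tpi1, the triose phosphate isomerase, was at 131 FPKM in the knockout library and 138 FPKM in WT. Gapdh, which oxidises the triose and serves many studies as a reference gene, was at 114 FPKM in the knockout and 127 FPKM in WT, 1.11-fold lower (interval 1.08 to 1.15). Pgam1, phosphoglycerate mutase, was at 234 FPKM in the knockout and 277 FPKM in WT. Each of these 3 stood lower as deposited and higher once the median of ratios was set to 1 (log2 differences of 0.24, 0.16 and 0.08 for Tpi1, Gapdh and Pgam1). Actb, the other common reference gene, was at 196 FPKM in the knockout and 664 FPKM in WT, a far larger difference than that of Gapdh. Pgk1, the kinase that makes the pathway's earliest ATP, was at 278 FPKM in the knockout and 211 FPKM in WT, 1.32-fold higher (interval 1.28 to 1.36), and was higher under each of the 4 scalings. Its ratio to Gapdh was 2.43 in the knockout and 1.65 in WT. Processed pseudogenes can share reads with these genes: 51.7% of the 100-base windows in Pgk1 transcripts, 33.9% in Pgam1 and 20.9% in Gapdh occur in transcripts of other genes in GENCODE M21.

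Among the steps after aldolase, enolase had the largest difference. Eno1, the enolase of most tissues, was at 52.6 FPKM in the knockout library and 116 FPKM in WT, 2.21-fold lower (interval 2.12 to 2.30). It lies on chromosome 4 from 150236721 to 150248879 (mm10, + strand, ENSMUSG00000063524.13). Eno1b, a near-identical copy on chromosome 18 from 48045335 to 48048378 (mm10, + strand, ENSMUSG00000059040.4), was listed at 0 in the knockout and at 19.8 FPKM in WT. Of the 100-base windows in Eno1b transcripts 63.6% occur in Eno1 as well, so fragments could be assigned to either gene, and their sum is the safer value. That sum was 52.6 FPKM in the knockout and 136 FPKM in WT, 2.58-fold lower, so the direction is the same with the copies joined. The zero makes the log2 difference of Eno1b (-4.38) depend on the pseudocount, and no fold is given for it. Relative to the median of all genes Eno1 alone stood at -0.82, within 2-fold, whereas the sum of Eno1 and Eno1b stood at -1.05, past 2-fold. Eno2, the neuronal enolase, was at 11 FPKM in the knockout and 8.05 FPKM in WT, 1.37-fold higher (interval 1.22 to 1.54). Eno3, the muscle enolase, stood at 10.8 and 5.62 FPKM; it is outside the 35 genes and was named with its values known. Eno2 made up 17.3% of the summed FPKM of the 3 enolase genes in the knockout and 5.59% in WT. The ratio of Aldoa to Eno1 was 12.9 in the knockout and 3.22 in WT, 4.01 times as high (interval 3.83 to 4.19). This ratio takes Eno1 without Eno1b, so read sharing between the copies can alter it beyond the interval.

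**Figure D3:**
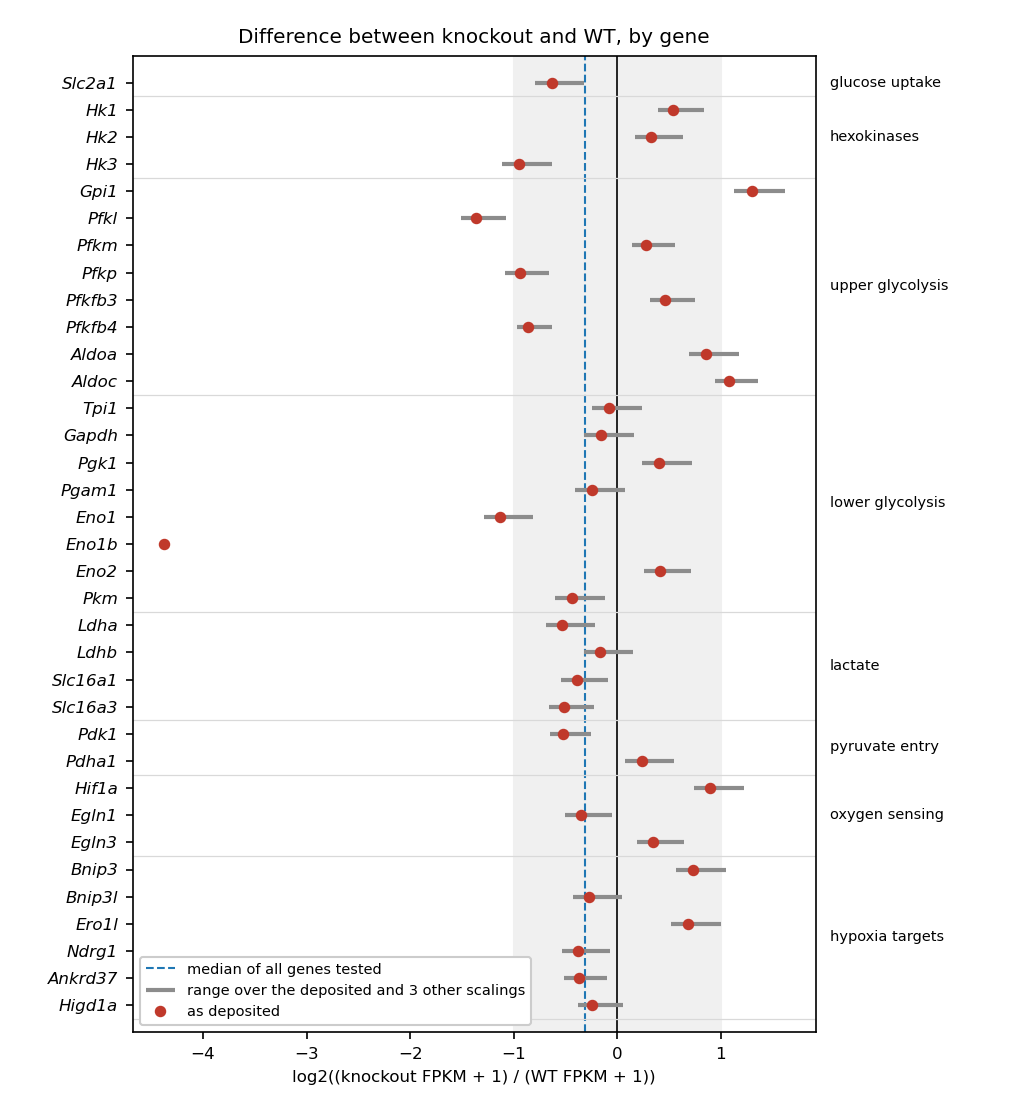
Difference between the Trem2 knockout and WT libraries for each of the 35 genes, as log2((knockout FPKM + 1)/(WT FPKM + 1)), with red circles for the deposited values and grey bars for their range over 4 scalings. Differences run from -4.38 (Eno1b) to 1.30 (Gpi1), the shaded band marks less than 2-fold, and the dashed line marks the median of all genes at -0.31.

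Pyruvate and lactate genes stood slightly lower in the knockout library, close to the shift of all genes, with the direction of Ldhb turning once the median of ratios was set to 1. Pkm, pyruvate kinase, was at 193 FPKM in the knockout and 263 FPKM in WT, 1.36-fold lower (interval 1.33 to 1.39). Ldha, the lactate dehydrogenase subunit that favours lactate formation, was at 126 FPKM in the knockout and 182 FPKM in WT, 1.44-fold lower (interval 1.40 to 1.5). Ldhb, the subunit that favours the reverse reaction, was at 22.6 FPKM in the knockout and 25.5 FPKM in WT, and its interval (1.13-fold lower, 0.991 to 1.28) includes no difference. Among the 29 members with an interval it was the only such member. Ldha held 84.8% of the lactate dehydrogenase FPKM in the knockout and 87.7% in WT. The lactate transporters stood alike. Slc16a1, the widespread form, was at 11.1 FPKM in the knockout and 14.9 FPKM in WT, and Slc16a3, the form tied to lactate export, was at 8.95 and 13.2 FPKM. Relative to the median of all genes, Pkm, Ldha, Slc16a1 and Slc16a3 lay between -0.22 and -0.08.

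Entry of pyruvate into the mitochondrion is governed by pyruvate dehydrogenase and the kinases that block it. Pdk1, a kinase that switches the complex off and a HIF target, was at 4.09 FPKM in the knockout library and 6.28 FPKM in WT, 1.54-fold lower (interval 1.35 to 1.75). Pdha1, the catalytic alpha subunit of the complex, was at 44.7 FPKM in the knockout and 37.7 FPKM in WT, 1.18-fold higher (interval 1.11 to 1.26). These 2 stood in opposite directions under each of the 4 scalings. The ratio of Pdk1 to Pdha1 was 0.0916 in the knockout and 0.167 in WT, a quotient of 0.55 (interval 0.479 to 0.633). That of Ldha to Pdha1 was 2.82 in the knockout and 4.83 in WT. Pdk1 and Pdha1 do not stand for all kinases or the whole complex. The kinase genes Pdk3 (9.15 and 8.48 FPKM in knockout and WT) and Pdk2 (2.7 and 2.42 FPKM) differed little. Other genes of the complex stood lower as deposited, namely Pdhb (18.7 and 19.4 FPKM), Dld (39.2 and 48.1 FPKM), Dlat (5.47 and 9.72 FPKM) and Pdhx (2.56 and 6.03 FPKM). Pdk2, Pdk3, Pdhb and Dld were named with their values known.

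Genes of oxygen sensing were not uniform either. Hif1a was at 77.1 FPKM in the knockout library and 40.7 FPKM in WT, 1.89-fold higher (interval 1.81 to 1.98). It lies on chromosome 12 from 73901375 to 73947530 (mm10, + strand, ENSMUSG00000021109.13), and its log2 difference of 0.90 was above that of 95.4% of all genes tested. Hif1a is known to be regulated mostly through the stability of its protein, which these data do not measure. Egln1, the main prolyl hydroxylase that marks it, was at 14.6 FPKM in the knockout and 18.8 FPKM in WT, 1.29-fold lower (interval 1.17 to 1.43). Egln3, a hydroxylase that HIF itself induces, was at 14.5 FPKM in the knockout and 11.2 FPKM in WT, 1.30-fold higher (interval 1.13 to 1.48). The summed level of these hydroxylase genes was 29.1 FPKM in the knockout and 30 FPKM in WT, with Egln3 at 50.0% of it in the knockout and 37.3% in WT.

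Targets of the hypoxia response split within families. Bnip3 and Bnip3l encode related receptors that mark mitochondria for removal. Bnip3 was at 41.6 FPKM in the knockout library and 24.7 FPKM in WT, 1.69-fold higher (interval 1.54 to 1.85). Bnip3l was at 60.5 FPKM in the knockout and 73.3 FPKM in WT, 1.21-fold lower (interval 1.15 to 1.27) as deposited, but it stood at 0.04 on the log2 scale with the median of ratios set to 1. Bnip3 gave 40.8% of their sum in the knockout and 25.2% in WT. The ratio of Bnip3 to Bnip3l was 2.05 times as high in the knockout (interval 1.84 to 2.27). Ero1l, an oxidase that helps to form disulfide bonds in the endoplasmic reticulum, was at 53.0 FPKM in the knockout and 32.6 FPKM in WT, 1.62-fold higher (interval 1.54 to 1.71). The other 3 stood lower as deposited, of which Higd1a turned to 0.06 on the log2 scale with the median of ratios set to 1. Ndrg1, a stress-responsive gene, was at 13.5 FPKM in the knockout and 17.8 FPKM in WT. Ankrd37, a HIF target, was at 5.29 and 7.14 FPKM, and Higd1a, a mitochondrial membrane protein, at 8.73 and 10.5 FPKM. Relative to the median of all genes these 3 lay between -0.07 and 0.07, while Bnip3 and Ero1l stood at 1.04 and 0.99.

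**Figure D4:**
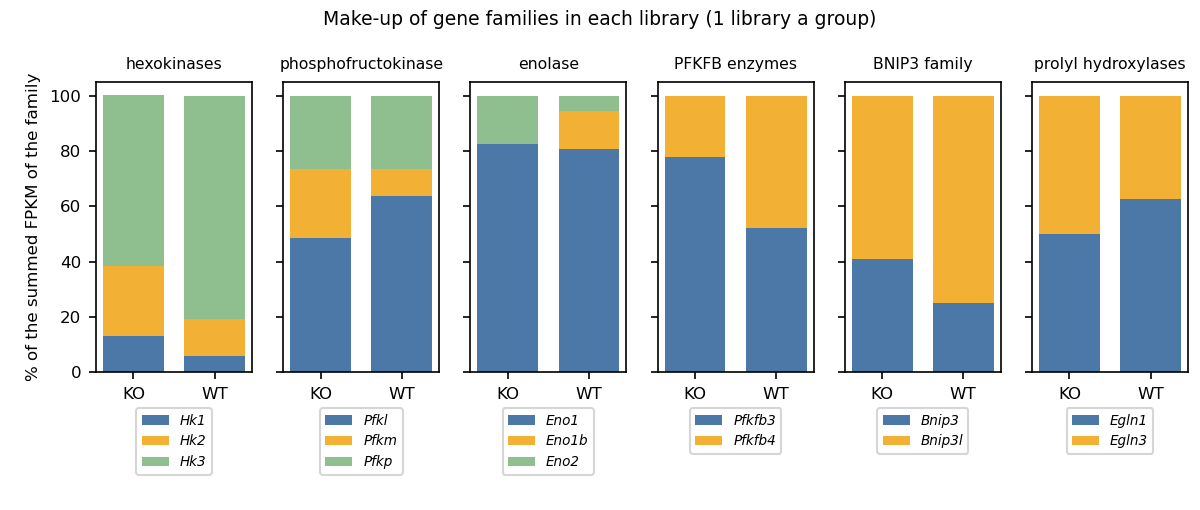
Share of each gene in the summed FPKM of its family (vertical axis, percent), with the Trem2 knockout library (KO) left of WT in each panel and 1 library per bar. Hk3 holds 61.6% in the knockout and 80.7% in WT, Pfkl 48.4% and 63.7%, Pfkfb3 77.7% and 52.2%, and Bnip3 40.8% and 25.2%.

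Over all 35 genes, 14 were higher and 21 lower as deposited. The median of all genes tested was -0.31, so most genes were lower as deposited too. Relative to that median, 20 members lay above and 15 below. The 14 were higher under each of 4 scalings and 15 of the 21 were lower under each. The other 6, Tpi1, Gapdh, Pgam1, Ldhb, Bnip3l and Higd1a, changed sign between scalings. Of the 29 members with an interval, 13 had it wholly above and 15 wholly below equal FPKM. This says that counting error alone, as estimated here, is small, and nothing about variation between mice or cultures. Counts of kept signs and of such intervals were not computed over all genes.

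Further lists of related genes, 6 in all, set these values in context. Their counts are to be read against all genes tested, of which 3.48% were at least 2-fold higher and 13.7% lower as deposited, and 7.66% higher and 6.57% lower with the general shift subtracted. Among 31 hypoxia targets outside the 35 genes that averaged at least 1 FPKM, 5 stood 2-fold or more higher and 3 lower, with a median difference of -0.05, and with the general shift subtracted 8 stood higher and 1 lower. P4ha1, a collagen prolyl hydroxylase subunit, was at 165 FPKM in the knockout library and 53.8 FPKM in WT. Adm, the peptide adrenomedullin, was at 5.94 FPKM in the knockout and 1.59 FPKM in WT. Cited2, which competes with HIF for a coactivator, went the other way at 5.58 FPKM in the knockout and 15.4 FPKM in WT. Tfrc, the transferrin receptor, was also lower, at 13.6 FPKM in the knockout and 34.8 FPKM in WT. The third lower gene was Arg1, an arginase, at 54.5 FPKM in the knockout and 122 FPKM in WT, and the other 3 higher genes were P4ha2, Loxl2 and Tmem45a. These 4, and Vegfa (96.9 FPKM in the knockout and 51.2 FPKM in WT), which was within 2-fold, were picked after their values were seen. Of the targets named so far, P4ha1, P4ha2 and Loxl2 make or cross-link collagen. Other collagen-modifying genes of this list, also named after their values were seen, were not uniform. Lox was at 49.9 FPKM in the knockout and 29.6 FPKM in WT, but Plod1 (15.0 and 18.2 FPKM) and Plod2 (16.6 and 17.4 FPKM) stood slightly lower. The sum of the fibroblast and contractile markers given above (1070 FPKM in the knockout, mostly Tagln and Acta2, and 251 FPKM in WT) moves with P4ha1, P4ha2 and Loxl2, a part that was not tested.

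HIF pathway regulators had 0 of 14 members at least 2-fold higher and 2 lower as deposited, near the shares over all genes (3.48% and 13.7%). After subtraction of the general shift the counts were still 0 higher (7.66% of all genes) and 2 lower (6.57%). Egln2, another prolyl hydroxylase, was at 6.92 FPKM in the knockout library and 18.9 FPKM in WT, 2.73-fold lower, and Siah1a, a ubiquitin ligase that targets prolyl hydroxylases, was at 2.21 and 11.3 FPKM. The coactivator genes Ep300 (2.69 and 5.35 FPKM) and Crebbp (1.28 and 2.92 FPKM) were within 2-fold on the log2(FPKM + 1) scale. Other genes of glycolysis and sugar entry had 0 of 18 higher and 5 lower, against the same 3.48% and 13.7%. These included Gnpda1, which returns glucosamine phosphate to glycolysis (19.4 and 64.4 FPKM in knockout and WT), the galactokinase Galk1 (8.44 and 20.8 FPKM), Minpp1 (9.81 and 22.5 FPKM) and Tigar, which lowers the fructose bisphosphate that activates phosphofructokinase (2.26 and 5.89 FPKM). The fifth was the pyruvate and lactate carrier Slc16a7, at 0.852 and 2.75 FPKM, named after its values were seen. With the general shift subtracted, 2 of this list were higher (7.66% of all genes) and 1 lower (6.57%).

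In the 3 remaining lists few genes passed 2-fold, and those higher as deposited were all in the glycogen and gluconeogenesis list. Over all genes 3.48% were higher and 13.7% lower as deposited, and 7.66% and 6.57% with the general shift subtracted. Pyruvate entry and TCA cycle genes had 0 of 27 higher and 2 lower, or 0 and 0 with the shift subtracted, with a median of -0.24. Pdp1, the phosphatase that switches pyruvate dehydrogenase on, was at 8.20 FPKM in the knockout library and 21.2 FPKM in WT, and Idh3a, a subunit of isocitrate dehydrogenase, at 3.09 and 8.75 FPKM. The complex's components Dlat (5.47 and 9.72 FPKM) and Pdhx (2.56 and 6.03 FPKM) were within 2-fold on the log2(FPKM + 1) scale. The pentose phosphate pathway had 0 of 9 members higher or lower by 2-fold, or 1 higher (Rpe) with the general shift subtracted, with a median of -0.16. Its entry enzyme G6pdx was at 40.6 FPKM in the knockout and 60.4 FPKM in WT, with H6pd at 8.71 and 13.5 FPKM and Pgd at 41.9 and 56.9 FPKM, while Rpe, an epimerase of the later, reversible part, was at 22.3 and 12.2 FPKM. Glycogen and gluconeogenesis genes had 2 of 14 higher and 1 lower, or 2 and 0 with the general shift subtracted, with a median of -0.17. G6pc3, a phosphatase that releases glucose from glucose phosphate, was at 25.0 FPKM in the knockout and 6.57 FPKM in WT, 3.81-fold higher (interval 3.24 to 4.48). Gyg, glycogenin, the primer of glycogen, was at 233 and 72.7 FPKM, 3.2-fold higher (interval 3.06 to 3.36). Pck2, the mitochondrial enzyme that makes phosphoenolpyruvate, was at 3.69 and 9.56 FPKM, and Phkb, a subunit of phosphorylase kinase, at 1.8 and 4.52 FPKM.

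**Figure D5:**
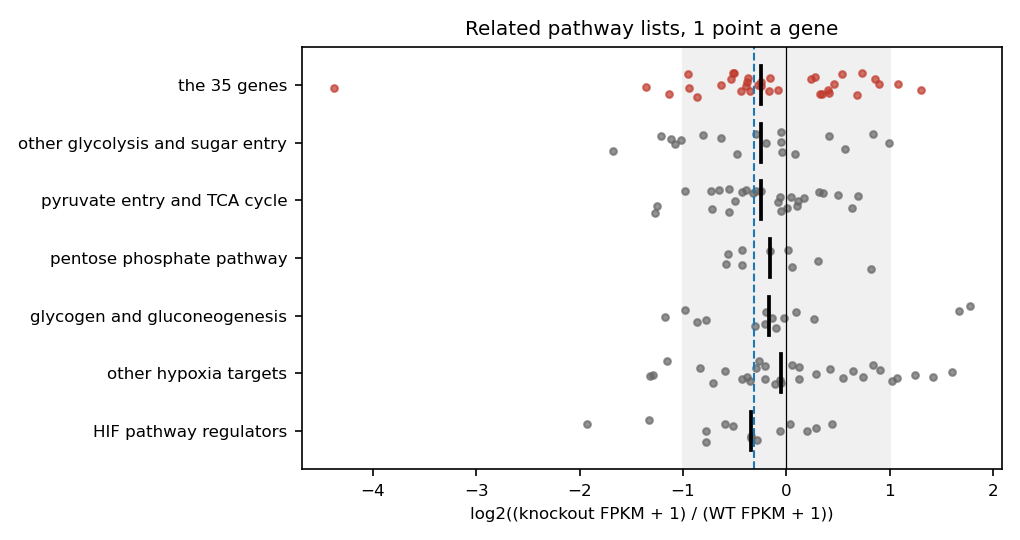
Differences as log2((knockout FPKM + 1)/(WT FPKM + 1)) for the 35 genes (red) and 6 related lists (grey), 1 point per gene with a mean of 1 FPKM or more, scattered vertically for visibility, with black bars at list medians. The medians run from -0.34 (HIF pathway regulators) to -0.05 (other hypoxia targets), against the dashed line at -0.31 for all genes, and G6pc3 is the point farthest to the right at 1.78.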

How the data were processed

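RNA sequencing of 2 mouse macrophage libraries, 1 Trem2 knockout and 1 WT, was available as a table the authors deposited, with FPKM per gene per the file headers. Libraries were strand-marked (dUTP), per the labels' protocols, and the submitters' processing notes name mm10. For the aligner, quantifier, annotation and further scaling the entry is: not given in the sources used here. Every listed gene reaches 0.501 FPKM somewhere, so genes below that in both libraries are not analysed here.

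Differences are log2((knockout FPKM + 1)/(WT FPKM + 1)) over genes averaging at least 1 FPKM, called at 2-fold. Of 2 gene IDs with 1 symbol, the higher was used. Lengths came from GENCODE M21, where 9914 IDs matched with version, and join the exons of all transcripts of a gene. If the deposited FPKM used shorter lengths, the estimated fragments are too many and the intervals too narrow. Low values of single-transcript genes were whole multiples of a common step (tolerance 0.1 steps) in 76.7% of 103 knockout and 66.2% of 68 WT values. The step was the best fit to these same values. For a step fixed beforehand 20.0% would fall there by chance, and the higher level for a fitted step was not computed. Many lay just under 600 steps or its double (6 of the 15 lowest knockout and 2 of the 5 lowest WT values), so 600 steps were taken as 1 fragment. These fragments serve for the 95% intervals only, which cover counting error, and 6 members without a matched length have none. Intervals of ratios between genes use a normal approximation on the log scale. Promoters are RefSeq's (GRCm38.p6). The fold rule and intervals were run on simulated data with counting error only, drawn at the same lengths and estimated depths. That run cannot show whether the depths, the scaling or the assignment of shared reads are right.

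Groups came from the sample titles. The members and lists were chosen with earlier results of these data known. Named genes are all members, Trem2, up to 4 genes of each related list with the largest difference, Actb and cell markers; 1 gene of the hypoxia list is not reported here and was left out of its counts. Alternatives were pseudocounts, filters, scalings, thresholds and joining Eno1 with Eno1b. Tools were numpy 2.4.6, scipy 1.17.1, pandas 2.3.3 and matplotlib 3.10.9 under Python 3.11.15.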

Additional observations from a re-analysis of the deposited data

How the results depend on the processing

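Leaving out a library leaves no comparison, since each group is 1 library. No paired analysis was possible because there is 1 library in each group. As reported, 2 members stood 2-fold or more higher in the knockout, 3 stood lower, and their median was -0.24. With a pseudocount of 0.1 FPKM 5 were lower, because Pfkp and Pfkfb4 pass. With 5 FPKM, or only genes averaging at least 5 FPKM, 1 was higher. Rescaling to the same summed FPKM gave 1 higher, 5 lower and a median of -0.38. Setting the median of ratios to 1 gave 5 higher and a median of 0.08, and setting the trimmed mean of log ratios to 0 gave 6 higher and 0.08. Subtracting the median of all genes, an alternative added after seeing the data, 5 were higher and the median was 0.07. A threshold of 1.5-fold gave 6 higher and 7 lower, where 9.99% and 32.7% of all genes passed, and 4-fold gave 0 and 1. Gpi1 and Pfkl stayed past 2-fold in their direction under every pseudocount and scaling run. Of 176 member values recomputed, 161 kept their side of 2-fold, and no called member changed sign. The member counts are to be read against all genes, whose counts moved with the scaling too. Of 9962 genes tested, 347 were higher and 1364 lower as deposited. Rescaling to the same total gave 258 and 1800, the median of ratios 743 and 814, and the trimmed mean 751 and 814. Among all genes past 2-fold, 20.3% were higher as deposited, 12.5% after rescaling to the same total, and 47.7% and 48.0% under the other scalings. Leaving out Eno1b, also added after seeing the data, gave 2 higher and 2 lower. Read sharing limits Pgk1, Pgam1 and Gapdh (mainly with processed pseudogenes) and Eno1 (mainly with the coding copy Eno1b).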
